A study of Mus musculus with 50 samples.

Results

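The classical cell cycle cyclins of types A, B, D and E were followed in mouse embryos that received mRNA for the homeobox factor Duxbl. The 10 genes are Ccna1 and Ccna2 (type A), Ccnb1, Ccnb2 and Ccnb3 (type B), Ccnd1, Ccnd2 and Ccnd3 (type D), and Ccne1 and Ccne2 (type E). They were taken by name, whatever their values, and all 10 were among the 35750 genes of the deposited expression table. The series asks how Duxbl acts on the exit from totipotency, the state in which a single blastomere can still form every lineage.

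All embryos were wild type (WT) and of the C57BL6/J strain, and came from superovulated females of 3 to 12 weeks mated with males of that strain. Zygotes were injected 24 h after human chorionic gonadotropin (hCG) with 200 ng/µl of mRNA encoding V5-tagged Duxbl joined through a 2A peptide to nuclear mCherry (Duxbl embryos), with the same concentration of nuclear mCherry mRNA alone (mCherry embryos), or were left uninjected. After culture, embryos were taken 28 to 30 h after hCG, late in the 1-cell stage (late 1C), at 32 h, early in the 2-cell stage (early 2C), or at 48 h, late in it (late 2C). Each tube for RNA sequencing pooled 5 embryos. Uninjected and mCherry embryos gave 6 libraries at each stage, and Duxbl embryos gave 4 at late 1C, 5 at early 2C and 5 at late 2C, 50 libraries in 9 groups. The Duxbl groups model added supply of the factor from mRNA given at the 1-cell stage, on top of the embryo's own gene. Libraries are named here by the number in their labels (1 and 3 to 7). The labels do not say that equal or different numbers stand for separate matings or days, so p-values measure the spread between these libraries.

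Cyclins are the regulatory subunits that switch on cyclin-dependent kinases (CDKs), and their rise and destruction drive the cell cycle. Cyclins D act with Cdk4 and Cdk6 in G1, cyclins E with Cdk2 at the start of DNA replication, cyclins A with Cdk2 and Cdk1 through S phase and G2, and cyclins B with Cdk1 at mitosis. A mouse egg stores cyclin B mRNA for meiosis and the first division, and the 2-cell stage is when most maternal mRNA is cleared and the embryonic genome takes over.

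The injected mRNA was seen in the libraries labelled for it. Duxbl1 (ENSMUSG00000048502, mm39 chr14:25979001-25990512, plus strand) stood at 3960 ± 613 CPM (SD, n = 4) at late 1C, 2996 ± 1046 (n = 5) at early 2C and 2856 ± 1119 (n = 5) at late 2C in Duxbl embryos. In mCherry embryos the values were 141 ± 18.2, 172 ± 39.5 and 329 ± 138 CPM (n = 6 each). CPM here means the deposited value per 1000000 of the library's total, corrected by trimmed-mean (TMM) scaling, so every value is a share of a library and not a number of molecules per embryo, and fewer cells and less RNA per cell cannot be told apart. In units of 1000000 (M), deposited totals were 12.04 to 26.96 M per library, and approximate depths recovered from the steps of low values were 13.1 to 40.7 M. At late 2C, uninjected libraries 4 and 5 had a median correlation of 0.870 and 0.890 with their mates across genes, and the other uninjected libraries 0.927 to 0.938. In mCherry embryos libraries 4 and 5 had 0.906 and 0.905, near the 0.911 of library 1. Duxbl library 4 had 0.830, the lowest of all 50 libraries, and its mates had 0.870 to 0.890, so low likeness was not confined to these numbers. Results whose call libraries numbered 4 and 5 change, or whose value they move most, are given with and without both numbers.

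RefSeq start-site windows on GRCm38.p6 were held for 6 of the 10 genes (Ccna1, Ccnb1, Ccnb2, Ccnb3, Ccnd3 and Ccne1). Those of Ccne1, Ccnb1 and Ccnb2 are printed because these 3 genes separated Duxbl from mCherry embryos without overlap at late 2C, Ccnb2 in the direction opposite to the other 2. Each is the stretch before the RefSeq start site, on the gene's own strand (minus), without the bases that lie in an annotated transcript (GENCODE M21). Capitals mark matches to CCAAT or TTTGAA on either strand. The first is the CCAAT box, bound by NF-Y, and the second the core of the CHR element through which the DREAM complex acts on mitotic genes.
Ccne1 (chr7:38107535-38107740): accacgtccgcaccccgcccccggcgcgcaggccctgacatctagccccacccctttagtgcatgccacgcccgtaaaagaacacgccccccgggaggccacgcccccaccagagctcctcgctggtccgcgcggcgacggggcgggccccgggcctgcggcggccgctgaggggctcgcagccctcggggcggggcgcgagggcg
Ccnb1 (chr13:100786571-100786736): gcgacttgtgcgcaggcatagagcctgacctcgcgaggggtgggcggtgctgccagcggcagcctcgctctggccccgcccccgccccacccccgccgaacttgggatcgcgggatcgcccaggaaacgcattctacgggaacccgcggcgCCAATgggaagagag
Ccnb2 (chr9:70421555-70421804): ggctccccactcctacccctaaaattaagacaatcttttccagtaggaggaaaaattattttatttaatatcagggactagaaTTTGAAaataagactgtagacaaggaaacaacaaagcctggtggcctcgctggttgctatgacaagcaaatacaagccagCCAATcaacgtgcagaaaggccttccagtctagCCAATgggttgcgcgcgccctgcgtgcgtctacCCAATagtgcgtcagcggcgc
In the 250 bases before the start site, Ccnb2 had 3 CCAAT matches, at 87, 54 and 21 bases upstream, and 1 TTTGAA match at 167 bases upstream. Ccnb1 had 2 CCAAT matches, at 99 and 67 bases upstream, the second of them lying in an annotated transcript and so outside the printed stretch. Ccne1 had none of these motifs and no match to TTTNGCGC, a form of the E2F site. CCAAT or its reverse complement ATTGG was found in 33.8% of 32851 such windows of the genome, TTTGAA or TTCAAA in 16.0%, and TTTNGCGC or GCGCNAAA in 1.13%. A match describes the letters only and is not evidence of a bound site, and these matches do not overlap each other.

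At late 1C the cyclin mRNA pool was dominated by type B and by Ccna2. Per kilobase of annotated exon (GENCODE M21), the mean level in uninjected embryos was highest for Ccnb1, the main mitotic cyclin, at 460.3 CPM per kb, followed by Ccnb2 at 151 and Ccna2 at 109. Ccne2 came next at 39.1, Ccnb3, a cyclin known from the meiotic divisions of the egg, at 12.2, Ccne1 at 4.86 and Ccnd3 at 2.60 CPM per kb. Ccnd1, Ccna1 and Ccnd2 had 0.533, 0.167 and 0.0823 CPM per kb, and their ranges overlapped. Among the higher genes, Ccnb2 and Ccna2 overlapped, and all other neighbours in this order were separated in all 6 libraries. Exon unions include long and rare transcripts, so a per-kb level is lower than that of a shorter main transcript.

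By late 2C the order in uninjected embryos had changed. Ccne1, which drives entry into S phase, was highest at 248 CPM per kb, beside Ccnb1 at 220.1 and Ccna2 at 180.1, and these neighbours overlapped. Ccnb2 and Ccne2 followed at 35.2 and 33.2 CPM per kb, also overlapping, and the remaining 5 genes lay between 1.05 and 5.07. In Duxbl embryos of the same stage Ccnb1 led at 119 CPM per kb, with no overlap with the next gene. Ccnb2 (72.8) and Ccna2 (69.4) overlapped each other, and Ccne1, at 18.4 CPM per kb, stood below them and overlapped Ccne2, next above it at 29.0.

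**Figure D1:**
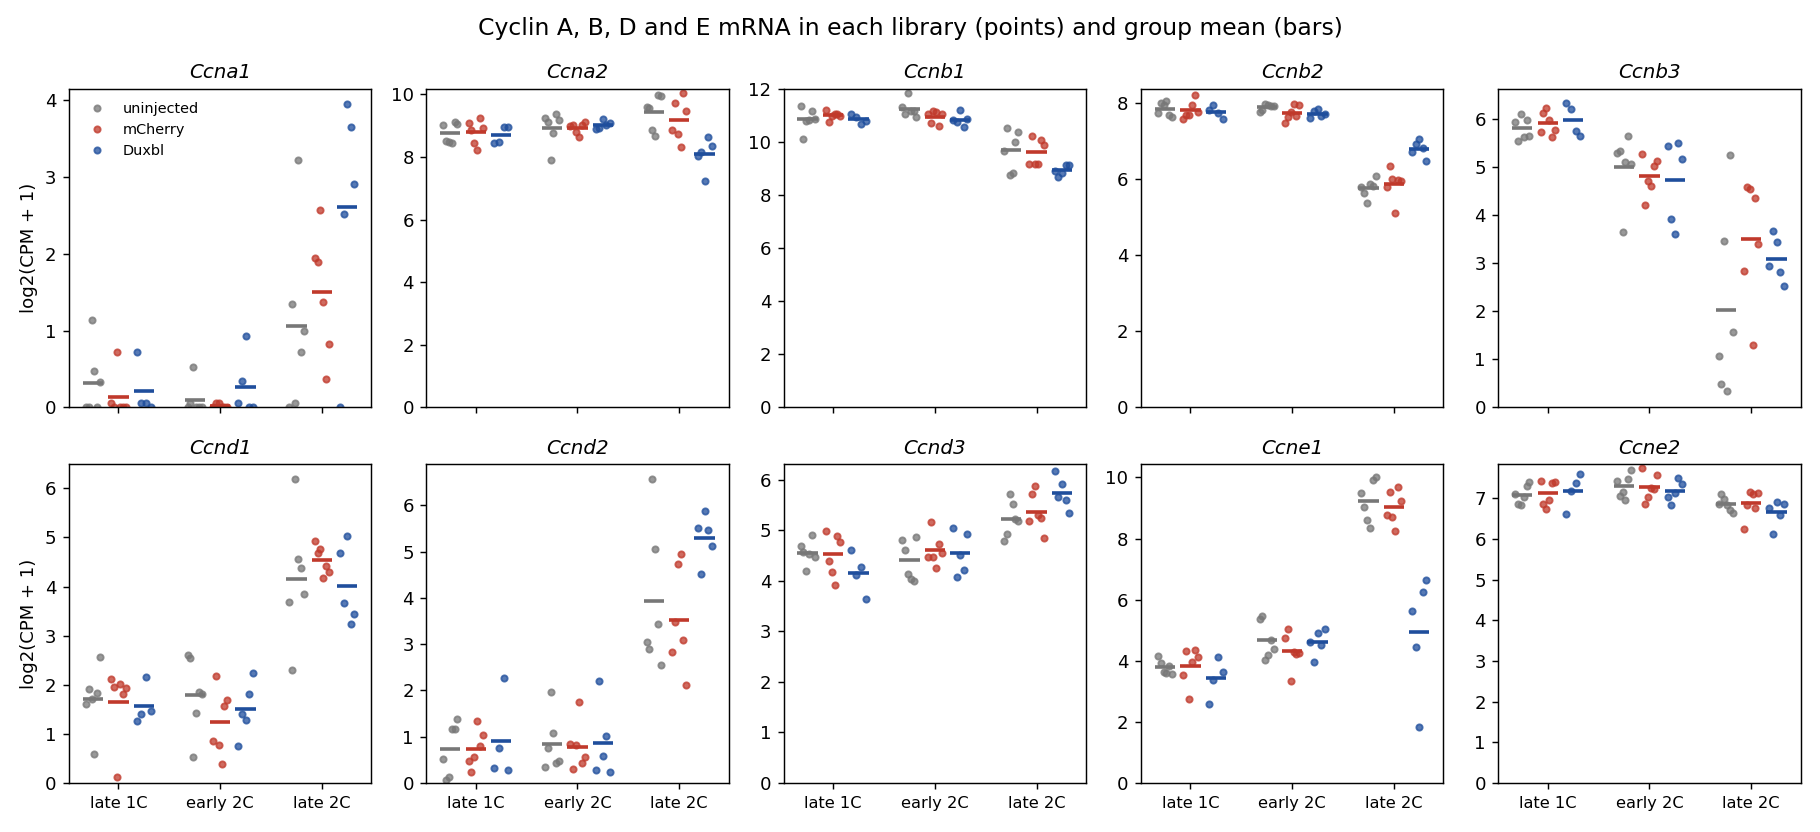
Level of each cyclin gene, as log2(CPM + 1), in every library (points) at the 3 stages, with grey for uninjected, red for mCherry and blue for Duxbl embryos, and bars at group means of 4 to 6 libraries. The groups overlap at late 1C and early 2C, and at late 2C the 5 Duxbl libraries lie below all mCherry libraries for Ccne1 and Ccnb1 and above them for Ccnb2.

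The first step, from late 1C to early 2C, changed few genes, and no cyclin passed the test. In uninjected embryos limma called 2.93% of 28808 genes tested (1.12% higher, 1.81% lower) at a Benjamini-Hochberg adjusted p under 0.05, and 0 of the 10 cyclins, with 1 at an unadjusted p under 0.05. That 1 was Ccne1, with 12.9 ± 2.30 CPM at late 1C and 26.8 ± 12.0 at early 2C (SD, n = 6 each), a log2 difference of 0.90 (SE 0.43) with a limma adjusted p of 0.422. When only these groups were fitted, Ccne1 passed with the same difference and a limma adjusted p of 0.0270, and the count was 1 of 10. Ccnb1 had 1941 ± 528 and 2518 ± 627 CPM, and Ccnb3 55.6 ± 9.01 and 33.9 ± 12.5, neither past the threshold.

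The second step, from early to late 2C, moved almost the whole family in uninjected embryos, at a stage when 56.9% of all genes were called (30.3% higher, 26.6% lower). Limma called 9 of the 10 cyclins, 5 higher and 4 lower. All 3 type B genes fell, all 3 type D genes and Ccne1 rose, and the median over the 10 was 0.66 on the log2 scale, against 0.02 over all genes tested.

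Of the type B genes, Ccnb2 (ENSMUSG00000032218, mm39 chr9:70314974-70328829, minus strand) was the most even: uninjected libraries ran from 217 through a median of 242 to 252 CPM at early 2C, and from 40.4 through 55.0 to 67.4 at late 2C. The groups were far apart, and the change was -2.13 (SE 0.14, limma adjusted p = 2.9e-18). Ccnb1 (ENSMUSG00000041431, mm39 chr13:100915158-100923078, minus strand) went from a median of 2320 CPM, range 1976 to 3728.5, to a median of 917, range 435 to 1501. It changed by -1.56 (SE 0.21, limma adjusted p = 1.18e-08), and by -0.99 without libraries 4 and 5, which were the lowest at late 2C. Ccnb3 (ENSMUSG00000051592, mm39 chrX:6845891-6907858, minus strand) went from 33.9 ± 12.5 to 8.45 ± 14.4 CPM, a change of -2.98 (SE 0.50, limma adjusted p = 9.31e-07), with library 6 at 37.0 CPM and 4 of the 6 libraries below 2 CPM at late 2C.

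The rising genes started from low levels. Ccne1 (ENSMUSG00000002068, mm39 chr7:37797409-37806959, minus strand) had 15.2 to 42.8 CPM at early 2C and 323 to 1037 CPM at late 2C, with medians of 22.5 and 622. No library overlapped, and the change of 4.55 (SE 0.43, limma adjusted p = 3.62e-13) was the largest of the 10 cyclins in this step. Ccnd2 (ENSMUSG00000000184, mm39 chr6:127102125-127129156, minus strand) rose from 0.949 ± 0.999 to 25.7 ± 34.7 CPM, by 3.09 (SE 0.47, limma adjusted p = 1.6e-07), and by 2.48 without libraries 4 and 5. Its highest late 2C value, 93.4 CPM in library 4, was far above the median of 8.55. Ccnd1 (ENSMUSG00000070348, mm39 chr7:144483668-144493662, minus strand) rose by 2.37 (SE 0.42, limma adjusted p = 2.71e-06) and by 1.35 without libraries 4 and 5, library 4 being at 71.7 CPM against a median of 16.6. Cyclins D are the ones that answer to growth signals, and the third of them, Ccnd3 (ENSMUSG00000034165, mm39 chr17:47815976-47910616, plus strand), rose from 21.0 ± 6.03 to 37.4 ± 9.49 CPM, by 0.81 (SE 0.22, limma adjusted p = 0.00138). Its call was lost without libraries 4 and 5 (0.45, limma adjusted p = 0.127).

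The other 3 genes moved little or unevenly. Ccna1 (ENSMUSG00000027793, mm39 chr3:54952890-54962922, minus strand), the germ-line form of cyclin A, rose by 0.96 (SE 0.41, limma adjusted p = 0.0409) but stood at 1.92 ± 3.18 CPM at late 2C, and without late 2C library 5, at 8.30 CPM, the difference was 0.53 (limma adjusted p = 0.248). Without all libraries 4 and 5 it was 0.75 (limma adjusted p = 0.155), and with no filter on low values the call was also lost (limma adjusted p = 0.0512). Leaving out any of 7 other uninjected libraries of these stages moved its limma adjusted p to between 0.0523 and 0.0722. Ccne2 (ENSMUSG00000028212, mm39 chr4:11191351-11204779, plus strand) fell by 0.43 (SE 0.18, limma adjusted p = 0.0332). That call was lost without uninjected early 2C library 1, 6 or 7 or late 2C library 6 or 7 (differences of -0.41 to -0.35), and when values were scaled to library totals (-0.03) or by median of ratios (-0.11). Ccna2 (ENSMUSG00000027715, mm39 chr3:36619014-36626299, minus strand), the form used by dividing somatic cells, went from 512 ± 155 to 735 ± 253 CPM and was not called (0.51, SE 0.24, limma adjusted p = 0.0639). It passed without uninjected early 2C library 1 or 6 or late 2C library 4 or 5 (0.58 to 0.67), without all libraries 4 and 5 (0.55), and when scaled to library totals (0.92) or by median of ratios (0.84).

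Injection alone moved no cyclin past the threshold. Between mCherry and uninjected embryos limma called 0% of genes at each stage, with 564 genes at an unadjusted p under 0.05 at late 1C, 781 at early 2C and 383 at late 2C. Among the cyclins 0 were called at each stage by limma and with voom weights, and 1 had an unadjusted p under 0.05, Ccnb3 at late 2C, with 8.45 ± 14.4 CPM in uninjected and 13.7 ± 9.14 in mCherry embryos (n = 6 each).

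Duxbl mRNA had no detected effect on a cyclin at the first 2 stages. At late 1C limma called 0.0193% of 20777 genes between Duxbl and mCherry embryos (0.00481% higher, 0.0144% lower), and at early 2C 0.42% of 21180 (0.0283% higher, 0.392% lower). Of the 10 cyclins 9 passed the filter on low values at each stage and Ccna1 did not, and 0 of the 9 were called, with 0 at an unadjusted p under 0.05. Their median log2 difference was -0.08 at late 1C and -0.02 at early 2C, against -0.01 and 0.00 over all genes tested. Differences ran from -0.42 (SE 0.30, Ccne1) to 0.17 (SE 0.36, Ccnd2) at late 1C and from -0.12 (SE 0.17, Ccne2) to 0.29 (SE 0.30, Ccne1) at early 2C, and in each case the Duxbl and mCherry libraries overlapped. Ccna1 was between 0 and 0.904 CPM in all Duxbl and mCherry libraries of these stages.

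At late 2C the family split. Limma called 55.9% of 23052 genes between Duxbl and mCherry embryos (26.8% higher in Duxbl, 29.1% lower), and 4 of the 10 cyclins: Ccne1 and Ccna2 were lower, Ccnb2 and Ccnd2 higher. A count of 4 of 10 is not above the share of all genes called. In 3 genes the groups did not overlap, with Ccne1 and Ccnb1 lower and Ccnb2 higher. The share of all genes without overlap was not computed, so nothing is read from this count as particular to cyclins. The median over the 10 cyclins was -0.32, against -0.05 over all genes tested.

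**Figure D2:**
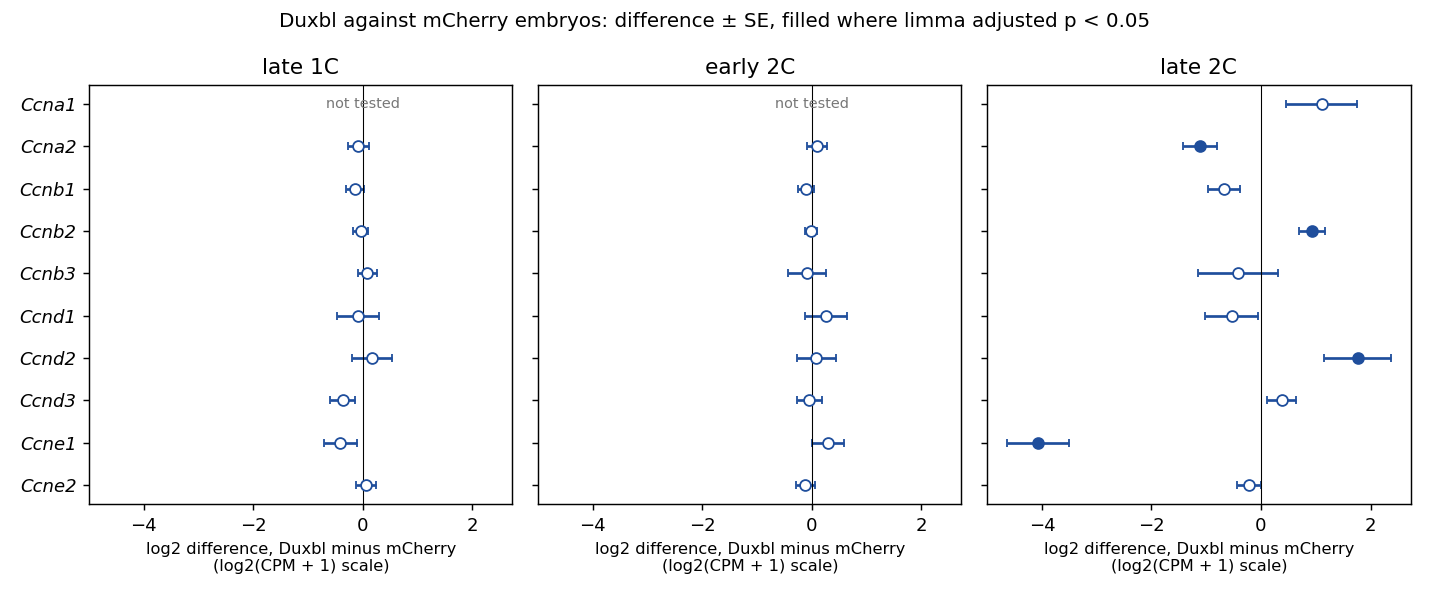
Difference between Duxbl and mCherry embryos for each cyclin (log2(CPM + 1) scale, bars ± SE from limma) at each of the 3 stages, filled where the limma adjusted p was under 0.05. All 18 tested points of the first 2 stages lie within 0.42 of 0, and at late 2C the differences run from -4.07 for Ccne1 to 1.77 for Ccnd2.

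The largest difference was in the type E gene Ccne1, whose promoter stretch is printed above. The 5 Duxbl libraries 1, 3, 4, 6 and 7 stood at 48.7, 20.7, 2.55, 74.5 and 98.8 CPM at late 2C, while the 6 mCherry libraries ran from 300.2 through a median of 519 to 829 CPM and the uninjected ones from 323 through 622 to 1037. Every Duxbl library was below every control library, and library 4 was lowest. The means were 49.0 ± 39.0 (SD, n = 5), 553 ± 202 and 659 ± 296 CPM (n = 6 each), and Ccne1 fell by 4.07 against mCherry (SE 0.57, limma adjusted p = 3.21e-06). Without libraries 4 and 5 the difference was -3.57 (limma adjusted p = 6.22e-07). Its paralog Ccne2 had 102 ± 20.8 CPM in Duxbl and 119 ± 25.9 in mCherry embryos, a difference of -0.22 (SE 0.22, limma adjusted p = 0.405), and the libraries overlapped.

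Of the type A genes, Ccna2 was lower in Duxbl embryos. Libraries 1, 3, 4, 6 and 7 had 258, 286, 149, 396 and 327 CPM, against 320.2 to 1048 CPM, median 585, in mCherry embryos. The 2 highest Duxbl libraries overlapped only mCherry library 5, the lowest of its group. Ccna2 fell by 1.11 (SE 0.31, limma adjusted p = 0.00398). Ccna1 stood at 0, 4.72, 14.5, 11.5 and 6.54 CPM in the same Duxbl libraries, against 0.294 to 4.94 CPM in mCherry embryos, and 3 Duxbl libraries were above all mCherry ones. Its difference of 1.11 (SE 0.65) had a limma adjusted p of 0.149, and without Duxbl library 1, in which it was listed at 0, it was 1.76 (limma adjusted p = 0.0139). It also passed in the fit of all 9 groups (limma adjusted p = 0.0234) and against uninjected embryos (1.55, limma adjusted p = 0.0447).

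The mitotic cyclins of type B went opposite ways. Ccnb2 had 105, 121, 133, 111 and 87.7 CPM in Duxbl libraries 1, 3, 4, 6 and 7, and from 33.8 through a median of 61.5 to 79.8 CPM in mCherry embryos. All 5 Duxbl libraries were above all mCherry and all uninjected libraries, which reached 67.4 CPM. Ccnb2 rose by 0.93 (SE 0.24, limma adjusted p = 0.00204), and by 0.62 (limma adjusted p = 0.0272) when values were scaled to library totals. Ccnb1 had 480.1, 417, 459.7, 569 and 573 CPM in Duxbl embryos and 577 to 1214 CPM, median 768, in mCherry embryos. The groups did not overlap but nearly met, since mCherry libraries 1, 4 and 5 were at 577, 583 and 579.7 CPM, and uninjected libraries 4 and 5, at 435 and 457, lay within the Duxbl range. The difference of -0.67 (SE 0.29) had a limma adjusted p of 0.0555 and was not called. It was called without mCherry library 1, 4 or 5 (-0.76 in each case, limma adjusted p of 0.0401 to 0.0413), without libraries 4 and 5 (-0.87, limma adjusted p = 0.00538) and with library totals (-0.99). Ccnb3 had 4.79 to 11.8 CPM in Duxbl and 1.47 to 23.1 in mCherry embryos, and its difference of -0.42 (SE 0.73) was not called.

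Of the type D genes, Ccnd2 was higher in Duxbl embryos. It had 44.8, 21.8, 57.8, 43.3 and 33.8 CPM in Duxbl libraries 1, 3, 4, 6 and 7, against 6.09, 10.2, 25.4, 30.0, 7.50 and 3.33 CPM in mCherry libraries 1, 3, 4, 5, 6 and 7. Only Duxbl library 3 fell within the mCherry range, and the mCherry libraries that reached it were 4 and 5. Ccnd2 rose by 1.77 (SE 0.61, limma adjusted p = 0.0176), and by 2.28 (limma adjusted p = 9.88e-05) without libraries 4 and 5. Against uninjected embryos, whose library 4 was at 93.4 CPM, the difference was 1.37 and missed the threshold (limma adjusted p = 0.0591), as it did with library totals (1.47, limma adjusted p = 0.0686). Ccnd1 had 17.2 ± 10.3 CPM in Duxbl and 22.7 ± 4.72 in mCherry embryos (-0.54, SE 0.49). Ccnd3 had 53.5 ± 12.2 and 41.3 ± 11.1 (0.38, SE 0.27), and neither was called.

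The change from early to late 2C within Duxbl embryos set these differences against the normal course. Limma called 39.2% of genes in this step (20.4% higher, 18.8% lower) and 9 of the 10 cyclins. Ccna1, Ccnd1, Ccnd2 and Ccnd3 rose, by 2.34, 2.51, 4.44 and 1.18 on the log2 scale, and Ccna2, Ccnb1, Ccnb2, Ccnb3 and Ccne2 changed by -0.95, -1.91, -0.93, -1.65 and -0.52. The exception was Ccne1, at 24.2 ± 6.73 CPM at early 2C and 49.0 ± 39.0 at late 2C (0.35, SE 0.47, limma adjusted p = 0.617). Without late 2C library 4, at 2.55 CPM, it rose by 1.13 (limma adjusted p = 0.0156), and without all libraries 4 and 5 by 1.01 (limma adjusted p = 0.0262). The Ccne2 call was lost without Duxbl early 2C library 6 or 7 or late 2C library 3 or 6 (differences of -0.50 to -0.38), with library totals (-0.43), by median of ratios (-0.25), and when Duxbl embryos of both stages were fitted without the other groups, at the same difference (limma adjusted p = 0.0575).

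**Figure D3:**
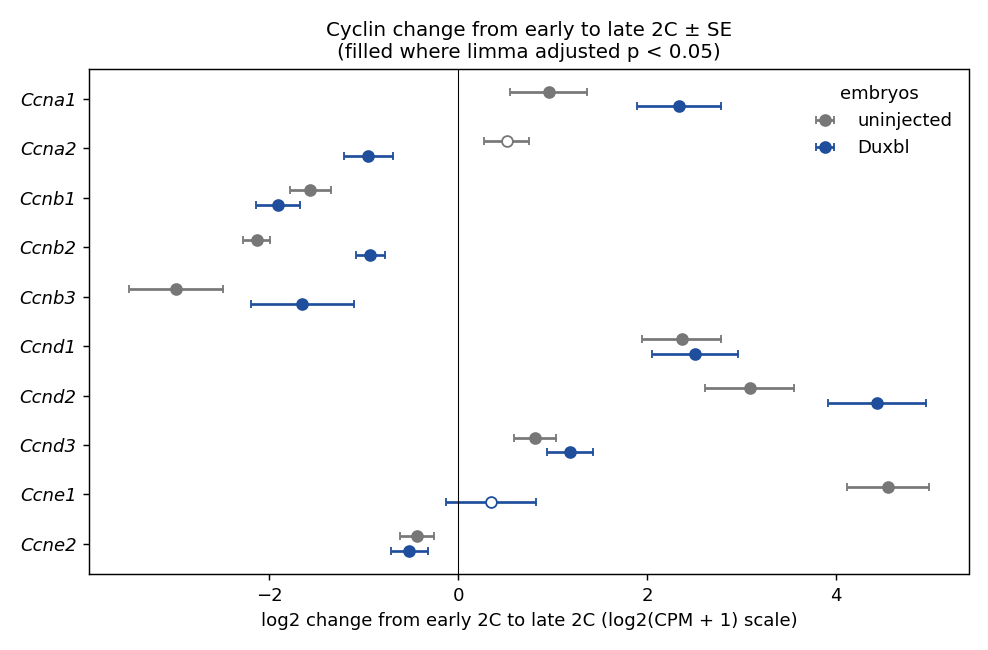
Change of each cyclin from early to late 2C (log2(CPM + 1) scale, bars ± SE from limma) in uninjected embryos (grey, 6 libraries per stage) and Duxbl embryos (blue, 5 per stage), filled where the limma adjusted p was under 0.05. Ccne1 rose by 4.55 in uninjected embryos and by 0.35, not called, in Duxbl embryos, and Ccnb2 changed by -2.13 and -0.93.

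The difference between the steps was tested directly, as the early to late 2C change in Duxbl embryos minus that in mCherry embryos. Limma called 44.9% of genes (21.9% higher, 23.1% lower) and 4 of the 10 cyclins, 2 in each direction. Ccne1 had -4.37 (SE 0.64, limma adjusted p = 1.64e-07), or -3.73 without libraries 4 and 5, and Ccna2 -1.21 (SE 0.36, limma adjusted p = 0.00453). Ccnb2 had 0.95 (SE 0.21, limma adjusted p = 0.000212), so it fell less, and Ccnd2 had 1.69 (SE 0.70, limma adjusted p = 0.0455). The Ccnd2 call was lost with any of 14 single libraries left out (1.40 to 1.73, limma adjusted p of 0.0519 to 0.0997). It was also lost with a pseudocount of 0.1 (limma adjusted p = 0.153), with no filter (0.0560), with library totals (0.138), by median of ratios (0.0623) and with voom weights (0.230). Without libraries 4 and 5 the difference was 2.30 (limma adjusted p = 0.000808). For Ccna1, the difference of 0.86 was not called but passed without Duxbl late 2C library 1 (1.51, limma adjusted p = 0.0136). Ccnb1 (-0.56, SE 0.32) passed with library totals alone, at -0.93.

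The counts for partners and regulators at late 2C stand beside 26.8% of all genes called higher and 29.1% called lower in Duxbl embryos, and beside a median of -0.05 over all genes tested. With lists this short and 55.9% of all genes called, nothing is read from the counts as particular to a list. A list of 9 genes held CDKs, the CDK-binding Cks1b and Cks2, and the CDK-activating kinase. Of these 9, 5 were lower in Duxbl embryos, 2 were higher, and their median difference was -1.56. Cdk1, the partner of cyclins A and B, had 29.3 ± 21.1 CPM in Duxbl (SD, n = 5) and 309.9 ± 95.0 in mCherry embryos (n = 6) and fell by 3.54 (SE 0.35, limma adjusted p = 3.07e-08). Cdk2, the partner of cyclins E and A, had 5.74 ± 5.76 and 74.8 ± 24.0 CPM and fell by 3.87 (SE 0.44, limma adjusted p = 1.81e-07). Of the partners of cyclins D, Cdk4 changed by -1.64 and Cdk6 by 1.03 (limma adjusted p of 0.00129 and 0.0219). Mnat1 and Cdk7, of the activating kinase, changed by -2.40 and -1.56.

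Genes that set CDK phosphorylation were mixed, 2 of 6 higher and 1 lower, with a median of 0.05. Wee2, the oocyte kinase that holds Cdk1 inactive, had 1911 ± 306 CPM in Duxbl and 452 ± 141 in mCherry embryos and rose by 2.11, and Wee1 rose by 0.67. Cdc25c, of a phosphatase that activates Cdk1, had 12.3 ± 9.12 and 131 ± 16.8 CPM and fell by 3.72. Of 7 CDK inhibitor genes 4 were lower and 2 higher, with a median of -1.64. Cdkn1a, the p53 target that encodes p21, changed by -3.84, Cdkn2d by -2.91 and Cdkn1c by -2.65, whereas Cdkn2a rose by 4.11, from 0.763 ± 0.539 CPM in mCherry to 29.8 ± 10.6 in Duxbl embryos.

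Of 20 genes of the anaphase-promoting complex (APC/C) and its cofactors, which destroy cyclins A and B, 6 were lower and 2 higher, with a median of -0.12. Ube2c, its ubiquitin-conjugating enzyme, changed by -2.37, Fbxo5 (Emi1), its inhibitor, by -2.72, and the subunit genes Anapc7 and Anapc11 by -3.25 and -2.07. Of 9 genes of the SCF and type D ligases 3 were higher and 4 lower, with a median of 0.14. Cul1 and Skp1, of the SCF core, rose by 1.76 and 1.77, and the F-box genes Skp2 and Fbxo31 changed by -3.43 and -3.61.

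Of 22 tested genes of RB, E2F, DREAM and NF-Y, which control cyclin transcription, 8 were higher and 6 lower, with a median of 0.12. E2f5, E2f4 and Tfdp1 rose by 2.41, 2.21 and 1.66. Nfyb, of a subunit of the factor that binds the CCAAT box, had 12.1 ± 9.70 CPM in Duxbl and 114 ± 41.5 in mCherry embryos and fell by 3.32. Of 15 genes that control translation and decay of maternal mRNA 8 were higher and 3 lower, with a median of 0.85. Btg4, the adaptor that starts maternal mRNA decay, had 3667 ± 965 and 893 ± 356 CPM and rose by 2.08, and the deadenylase genes Cnot7, Cnot6l and Pan3 rose by 1.82, 1.79 and 1.69. Of 15 genes of other cyclins 6 were lower and 2 higher, with a median of -0.47, and Ccnjl, Ccnc, Ccnf and Ccnl2 changed by -4.59, -2.95, -2.90 and -1.497. All named changes in the APC/C, ligase, inhibitor, phosphorylation, transcription, maternal mRNA and other cyclin lists had a limma adjusted p of at most 0.0145, and 0 genes of these lists were called at late 1C or early 2C.

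**Figure D4:**
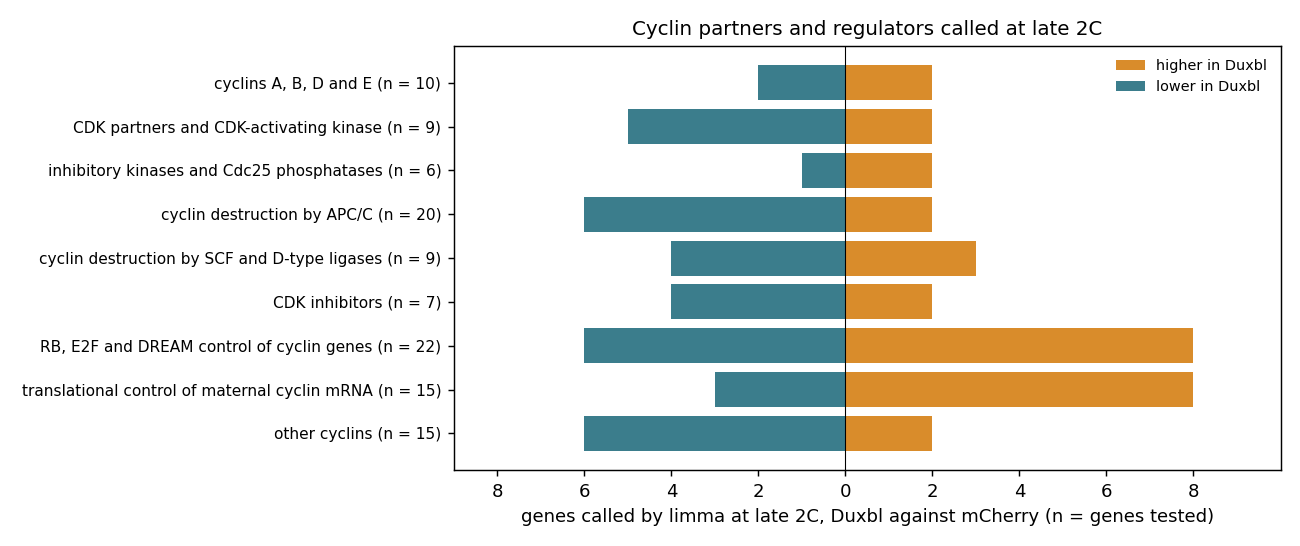
Number of genes called by limma at late 2C between Duxbl and mCherry embryos in the cyclin family and 8 lists of partners and regulators, to the right where higher and to the left where lower in Duxbl embryos, with the number tested beside each name. The CDK list has 5 lower and 2 higher of 9, the maternal mRNA list 3 lower and 8 higher of 15, and the cyclins 2 and 2 of 10.

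Oocyte markers also differed between Duxbl and mCherry embryos at late 2C. The summed level of 10 oocyte and early embryo markers, all of them detected in every group, was 4497 to 5914 CPM (median 5329) in Duxbl embryos at late 2C, 1194 to 1859 (median 1533) in mCherry embryos, and 5824 to 6751 in Duxbl embryos at early 2C. Limma called 9 of the 10 higher and 0 lower, with Bmp15 at 2.55, where 26.8% of all genes were called higher and 29.1% lower. The part of this in the higher Ccnb2 and the higher maternal mRNA genes was not tested. Markers of other cells that could adhere to embryos were summed in the same way, and their counts stand beside the same shares of all genes. For 13 cumulus and granulosa genes in the table, of which 7 were tested, 3 higher and 2 lower, the sum was 17.6 to 60.2 CPM in Duxbl and 43.1 to 59.9 in mCherry embryos. The highest of them on average was Cyp19a1 in Duxbl embryos, at 18.2 CPM, and Amhr2 in mCherry embryos, at 36.9 CPM. The sums of the 2 groups thus rest on different genes. For 7 oviduct genes (5 tested, 2 higher, 1 lower) the sum was 81.5 to 195 and 55.2 to 166 CPM. Epcam, also an epithelial gene of embryos, was the highest of these, at 72.7 and 95.5 CPM on average, and Ovgp1, the oviduct glycoprotein, had 52.1 and 5.82 CPM and rose by 2.89. For 7 sperm genes (4 tested, 1 higher, 3 lower) it was 4.08 to 31.6 and 3.13 to 9.42 CPM. Prm2, a protamine, was the highest of them in Duxbl embryos, at 10.3 CPM on average, and had 0.612 CPM in mCherry embryos. There Tnp1 was the highest, at 3.14 CPM. For 4 blood genes (2 tested, 0 higher, 2 lower) it was 0 to 13.1 and 25.3 to 41.7 CPM. The blood sum rose with stage in control embryos. In mCherry embryos it was 0.358 to 4.73 CPM at early 2C. In uninjected embryos it was 1.30 to 3.69 at early 2C and 16.6 to 57.4 at late 2C. Not every called gene of these lists is named, and the genes named do not stand for their list. The part of these genes in the cyclin differences was not tested.

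Across all 50 libraries, as a description of values that share stage and treatment, Ccnb2 and Ccne1 ran most against each other of all cyclin pairs (Pearson r = -0.88 of log2 values). Outside the family, among 12997 genes of at least 10 CPM in a group, Ccnb2 was most like Vta1 (r = 0.97), Ccnb1 like Oser1 (0.96), Ccne1 like Gm11843 (0.96), Ccnd2 like Gm10762 (0.93), Ccnd1 like AI661453 (0.92) and Ccna2 like Snx3 (0.90). Ccnb3 was most like Gspt2 (0.87), Ccnd3 like Gm12247 (0.83) and Ccne2 like Hps3, at only 0.69. Ccna1 did not reach the minimum level in any group.

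Some reads cannot be assigned to a cyclin with certainty. Processed pseudogenes of 3 members were in the table, and reads of near-identical copies may be split between them and their parent genes. Ccnb1-ps (mm39 chr7:41755323-41756609) had 38.6 ± 15.0 CPM in Duxbl and 106 ± 85.5 in mCherry embryos at late 2C, lower like Ccnb1 but not called (-1.15, SE 0.55). Ccnb2-ps (mm39 chr8:72670400-72672695) went against its parent: it had 0.185 ± 0.360 CPM in Duxbl and 9.03 ± 6.86 in mCherry embryos and fell by 2.89 (SE 0.46, limma adjusted p = 1.59e-05), while Ccnb2 rose. In uninjected embryos it rose by 3.03 from early to late 2C (limma adjusted p = 2.3e-10), while Ccnb2 fell. Ccnd3-ps stayed below 3 CPM in every library. The library kit does not mark strand, and 6 cyclins overlap a gene on the opposite strand. Of these partners, Bysl (361 bases shared with Ccnd3) had 6.36 and 50.6 CPM in Duxbl and mCherry embryos at late 2C, Exosc9 (863 bases shared with Ccna2) 14.1 and 50.2, LTO1 (with Ccnd1) 21.5 and 45.4 and Ints8 (with Ccne2) 24.4 and 46.2. The long noncoding partners of Ccna1 and Ccnd2 were below 1 CPM, and Ccne1, Ccnb1, Ccnb2 and Ccnb3 overlapped no other gene of the table.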

How the data were processed

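RNA was measured in 50 tubes of 5 embryos with a SMART-Seq v4 kit and Nextera XT libraries, per the labels' protocols. The authors deposited 1 whole number per gene and library with mm39 coordinates, treated here as a score and not as counts: in 19 libraries some whole numbers from 1 to 20 never occur, and low values move in steps of 0.554 to 1.98 per read. Per the submitters' processing notes, the tools were DESeq2 1.36.0, DESeq, featureCounts 2.0.4, Picard 3.0.0, STAR 2.7.10a and Trimmomatic 0.39, with no order or role given. Genes whose highest value over all libraries was under 6 are not in the table. Because the values proved to be scaled, no count model was used and no counting interval is given.

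Values were scaled over all 50 libraries with TMM factors (trims of 30% on ratios, 5% on abundance), and log2(CPM + 1), which understates changes of low genes, was fitted with limma 3.58.1 in R 4.3.3 (trended, robust, two-sided). A gene was tested where it reached a deposited value of 10 in a number of libraries equal to the fit's smallest group, Benjamini-Hochberg adjustment ran over all genes tested, and a call means an adjusted p under 0.05. Duxbl and mCherry, and mCherry and uninjected embryos, were compared in fits of the 3 groups of a stage. Stage steps and their difference came from a fit of all 9 groups. The scripts were tested on simulated data in which few genes were changed, equally up and down. Since 55.9% of genes were called between Duxbl and mCherry embryos at late 2C, that test does not cover the scaling there.

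The cyclins and lists were chosen with earlier results of these data known. All 10 cyclins are named. Of each list of partners and regulators, up to 4 called genes with the smallest adjusted p at late 2C are named, plus Cdk1, Cdk2, Cdk4 and Cdk6. For each cyclin its 1 most correlated gene is named. The marker lists are given as sums and counts, and not all genes that this rule selects from them are named. The pseudogenes, the overlapping genes, Epcam, Cyp19a1 and Amhr2 were added after their values were seen. Replicate numbers were checked for pairing by correlating deviations from group means. For Duxbl against mCherry at late 1C, all 4 pairs exceeded 0.1 (0.23 to 0.37). For late 1C to early 2C in uninjected embryos, all 6 pairs did (0.10 to 0.36). Only 2 of 4 and 2 of 6 libraries, respectively, correlated best with their own number. Whether libraries of equal number are paired in these comparisons is thus not settled by these values, and the labels do not state it. The block changed no cyclin call there. The alternatives were another pseudocount, no filter, other scalings, voom weights, a replicate block, the uninjected control, other fits, and leaving out libraries.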

Additional observations from a re-analysis of the deposited data

Results flagged for a closer look

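Single libraries stood apart in 5 of the 90 groups of cyclin values checked with Dixon's test. For normally spread values the test flags about 1 in 20 groups by chance. All 5 were libraries numbered 4, and the cause was not tested. Ccna1 was highest there in uninjected early 2C (0.437 CPM), mCherry late 1C (0.648 CPM) and Duxbl late 1C (0.649 CPM) embryos, all under 1 CPM. In the first 2 of these groups 4 of 6 libraries were at 0, so the rate of 1 in 20 need not hold there. Ccnb3 was lowest in uninjected early 2C library 4, at 11.5 CPM against 32.3 to 49.0 in its mates, and Ccnd1 in mCherry late 1C library 4, at 0.0865 CPM against 2.51 to 3.31.

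For 4 cyclins the change from early to late 2C differed between Duxbl and mCherry embryos by limma's interaction term: Ccna2 by -1.21, Ccnb2 by 0.95, Ccnd2 by 1.69 and Ccne1 by -4.37 on the log2 scale. The Ccnd2 call (limma adjusted p = 0.0455) was the only one of the 4 lost under an alternative run: it was lost with 14 of the libraries left out singly, and with another pseudocount, no filter, library totals, median of ratios or voom weights.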

How the results depend on the processing

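No called cyclin difference changed direction under any alternative run. Of 213 counts of called cyclins under alternatives, 212 stayed within 1.5 times the reported count. This includes the comparisons with a reported count of 0, where a count that stayed at 0 was taken as the same. The exception was the late 1C to early 2C step in uninjected embryos, 1 in place of 0 when these groups were fitted alone. Between Duxbl and mCherry embryos at late 2C the reported count of 4 ran from 4 to 6. Of 2045 values of single cyclins, 1972 kept their call, 46 lost it and 27 gained it. At late 2C, Ccne1, Ccna2 and Ccnb2 were called in all 21 alternatives to the comparison of Duxbl with mCherry embryos, 1 of which took uninjected embryos as control (-4.49 to -3.29, -1.43 to -0.90 and 0.62 to 1.04), Ccnd2 in 19, Ccnb1 in 10 and Ccna1 in 3.

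Counts over all genes moved more at the early stages. At late 1C, 4 genes were called between Duxbl and mCherry embryos, but 1 with voom weights, in the fit of all 9 groups or without libraries 4 and 5, and 7 without Duxbl library 6 or 7. At early 2C the 89 became 4 with voom weights, 163 against uninjected embryos, 41 without libraries 4 and 5, and 57 without Duxbl library 5. Injection alone, with 0 genes called, gave 1 (early 2C) and 40 (late 2C) when all 9 groups were fitted together. The 844 of the first uninjected step became 1600 in a fit of its groups alone, 388 without libraries 4 and 5, and 524 without early 2C library 4. The cause was not tested. Scaling to library totals moved the median of all genes between Duxbl and mCherry embryos at late 2C from -0.05 to -0.26, and that of the second uninjected step from 0.02 to 0.15.

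Adding a replicate block, a pairing that the labels do not state, gave 5 called cyclins at late 2C in place of 4 (Ccnb1, -0.80, limma adjusted p = 0.0036) and 10 in place of 9 in the second uninjected step (Ccna2, 0.51, limma adjusted p = 0.00547), and changed no other cyclin call. In those comparisons 3 of 5 Duxbl libraries at late 2C and 1 of 6 uninjected libraries correlated best with their own number. Of these pairs 1 of 5 and 0 of 6 exceeded a correlation of 0.1. Whether libraries of equal number are paired at late 2C is not settled by these values.

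Depth limits Ccna1 and Ccnd2 most: before late 2C their group means were at most 0.307 and 1.24 CPM. The added alternatives, scaling within a fit and leaving out libraries 4 and 5, were chosen after seeing the data.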
